A study of Drosophila melanogaster with 12 samples.

Results

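High and control fructose were compared in the larval fat body of Drosophila melanogaster by RNA-seq, with 3 libraries from larvae whose food held 0.3 M fructose (CFD, the control) and 3 from larvae whose food held 1.7 M fructose (HFD). These 6 of the 12 libraries of the series were chosen by their diet labels alone, and all 9500 genes of the deposited table were tested. The other 6 libraries came from larvae on 0.3 M and 1.7 M glucose (CGD and HGD), a comparison set beside this one only at the end. The model was fitted to all 12 libraries, so the glucose libraries also enter the spread behind each SE and p below. All larvae were female, were kept at 25 °C and were taken as wandering larvae of the third instar. They were the offspring of w1118 males (Vienna stock 60000) and UAS-Dcr2; r4-GAL4 females. The r4-GAL4 driver acts in the fat body, so both diets carried the same Dicer-2 transgene there. The growth notes also mention RNA interference of InR, the insulin receptor gene, while the cross they name has no such transgene. The normalized value of Dcr-2 was 35277, 38959 and 39256 on CFD and 51140, 48641 and 51495 on HFD, equal to a log2 fold change of 0.42 (SE 0.24, limma adjusted p = 0.256). That of InR was 261, 374 and 406 on CFD and 371, 361 and 455 on HFD, equal to a log2 fold change of 0.21 (SE 0.18, limma adjusted p = 0.456). The libraries overlapped between the diets for InR and did not for Dcr-2, and neither gene was called.

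The insect fat body combines tasks that mammals divide between liver and adipose tissue. It takes up dietary sugar, stores it as glycogen, releases trehalose as the blood sugar, and turns surplus carbon into fatty acids and triglyceride (TAG), a synthesis that consumes NADPH. The transcription factor Mondo, listed here as Mio, is the fly counterpart of the mammalian sugar sensor ChREBP, and the zinc finger gene sug (sugarbabe) is one of its known targets. The tissue also makes storage proteins, immune peptides and hormones that report the nutritional state to the brain.

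Each CFD library held 8555741 to 9736580 recovered reads in the listed genes, and each HFD library 3484912 to 11134939. HFD replicate 2 had the fewest reads in these genes, with 32 for the median gene against 87 to 131 in the other 5. Of its reads in listed genes 8.67% came from CR41548, an 18S ribosomal RNA gene, against at most 0.29% in the others. These counts do not measure sequencing depth. The mapped reads given in the paper differed far less among the HFD libraries. Each listed gene had at least 1 read in every library, so genes silent on 1 diet are not covered. The labels do not say whether the 3 libraries of a diet came from separate cultures, while the study's methods call them biological replicates. Values below are the authors' normalized values. Log2 fold changes are HFD minus CFD on log2(value + 1), which understates the change of low genes, with the standard error (SE) from limma. A gene is said to rise or fall where its limma p, adjusted over 9500 genes by the Benjamini-Hochberg method, was under 0.05.

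The high-fructose diet was accompanied by changes in 1826 genes, 19.2% of 9500. Of these 891 rose (9.38%) and 935 fell (9.84%). These shares of all genes are the background for each count of list members below. More than 2-fold rises numbered 362 and more than 2-fold falls 535, while 92 rose and 93 fell by more than 4-fold. The first principal component of the 6 libraries held 56.5% of the variance and had the 3 CFD libraries between -42.9 and -30.3 and the 3 HFD libraries between 29.7 and 39.9. The libraries of the diets did not overlap for 1791 of the called genes and for 38% of all genes. Over all genes the median change was -0.02 on the log2 scale.

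Rises and falls lay at different levels of expression. When the genes were ordered by mean value and cut into 5 equal classes of 1900, the lowest class held 44 rises and 213 falls, and the highest held 391 rises and 133 falls. This mean includes both diets, so a rise itself moves a gene towards a higher class and a fall towards a lower class. Classes by CFD value alone were not made. Counts for lists of abundant genes can also be read beside those of the highest class. The median log2 fold change went from -0.32 in the lowest class to 0.18 in the highest. The median SE went from 0.40 to 0.18. Without HFD replicate 2 the lowest class had 22 rises and 141 falls and the highest 263 and 65. Without that library 1141 genes were called, 569 higher and 572 lower. Leaving out CFD replicate 1 instead gave 1214, 640 higher and 574 lower. With every library scaled to its own total, 414 genes rose and 944 fell, a share of rises of 30.5% of the calls against 48.8%. That scaling moved the median of all genes by -0.19 and so lowers every value given below by about that much. It ended the call of 13 genes named below, all of them rises, with adjusted p of 0.0519 to 0.252 there, namely ap, CG13369, PyK, CG5966, CG7461, ftz-f1, Rpn5, Pros54, RpS3A, eIF-4a, Atg4, CycG and CG12116.

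**Figure D1:**
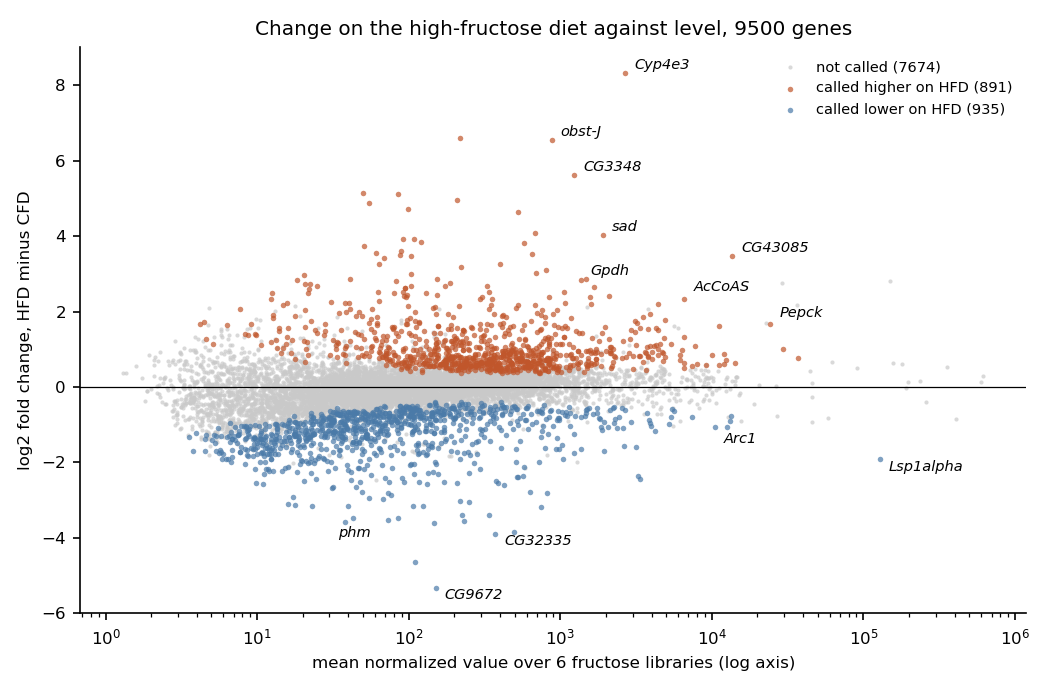
Each point is 1 of 9500 genes, with the mean normalized value over the 6 fructose libraries on a log axis and the log2 fold change, HFD minus CFD, on the vertical axis. The 891 genes called higher are in orange and the 935 called lower in blue. Falls are frequent among genes of low value and rises among genes of high value.

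The labelled tissue was checked with marker lists. The fat body markers were present at high level in each library. Of these 10 markers 2 rose and 1 fell, with a median of 0.40 and a range of -1.92 (Lsp1alpha) to 1.50 (desat1). Lsp2, a storage protein and the fat body marker with the highest value, had 543310, 575800 and 532690 on CFD and 850190, 629250 and 562440 on HFD, with a log2 fold change of 0.28 (SE 0.53, limma adjusted p = 0.759). Markers of other tissues were present as well, and in 3 of their lists at least 6 members were called. Of 12 measured midgut markers 7 fell and 0 rose, with a median of -1.55. Their summed value was 5524 to 15955 on CFD and 1344 to 6368 on HFD, so the diets overlapped, and CFD replicate 1 was highest. Of 8 hemocyte markers 6 fell and 0 rose, with a median of -1.36 and sums of 2777 to 6179 on CFD and 1221 to 1529 on HFD, again with CFD replicate 1 highest. Of 16 muscle markers 6 rose and 0 fell, with a median of 0.72 and sums of 16011 to 27814 on CFD, lowest in CFD replicate 1, and 31805 to 41861 on HFD. The muscle and hemocyte sums did not overlap between the diets. Rising muscle markers numbered 3 without CFD replicate 1 or HFD replicate 2, and 1 midgut marker rose without CFD replicate 2 or HFD replicate 3. In bulk tissue, fewer cells of a type and less RNA per cell cannot be told apart.

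Among hemocyte markers, He had 271, 82.3 and 45.0 on CFD and 8.76, 21.4 and 12.5 on HFD, equal to a log2 fold change of -2.82 (SE 0.49, limma adjusted p = 0.0016). All 3 CFD values lay above all 3 HFD values, and CFD replicate 1 was more than the other CFD libraries together. The prophenoloxidase genes, which encode the melanization enzymes of hemocytes, fell as well, with -2.37 (SE 0.40) for proPO-A1 and -1.91 (SE 0.29) for PO45 (PPO2), and so did the phagocytosis receptor nimC1, with -1.76 (SE 0.34). For He the log2 fold change was -2.11 without CFD replicate 1. Among muscle genes, the giant sarcomere protein gene bt had 903, 1089.9 and 1091 on CFD and 2759, 2893 and 2609 on HFD, equal to a log2 fold change of 1.42 (SE 0.16, limma adjusted p = 6.28e-05). Its HFD libraries were close together and all above the CFD libraries. The troponin I gene wupA (1.63 (SE 0.39)) and the actin gene Act87E (1.23 (SE 0.28)) also rose, and CFD replicate 1 was lowest for both. No salivary gland marker of 9 and no neuron marker of 8 was called, while falling salivary gland markers numbered 1 without CFD replicate 3 and 2 without HFD replicate 1. Of 7 epidermis markers 2 rose, and none of 7 was called without CFD replicate 1, CFD replicate 3, HFD replicate 1 or HFD replicate 2. Of 8 imaginal disc markers, ap rose (0.82 (SE 0.14)) and the signalling gene wg (-0.92 (SE 0.21)) and the wing gene nub (-0.76 (SE 0.18)) fell. No marker was at 0 in any library, since the table lists no such gene. The part of muscle, gut or blood cell RNA in other results was not tested.

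**Figure D2:**
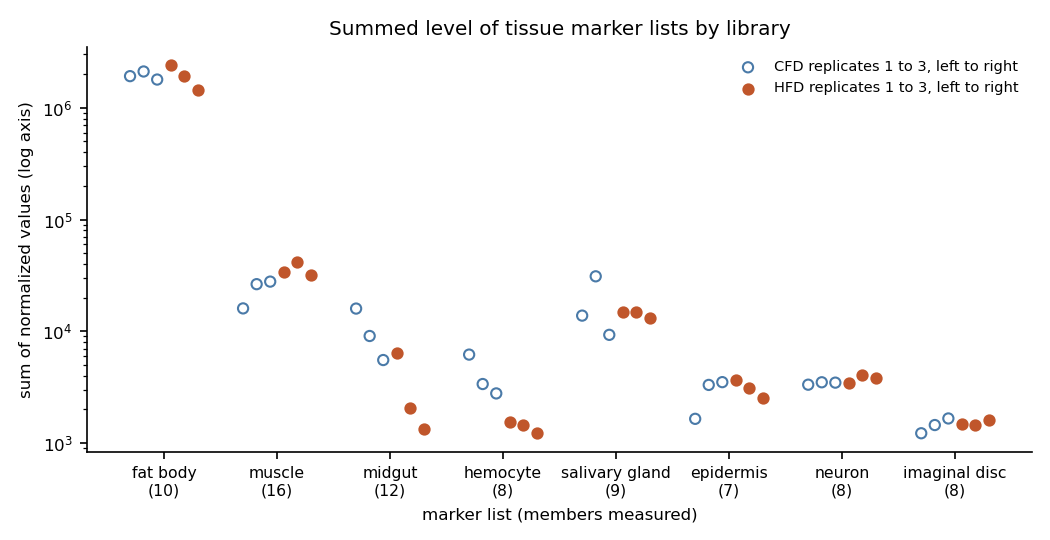
Sums of the normalized values of each tissue marker list are drawn on a log axis, 1 point per library, for lists with at least 7 measured members. The fat body sum is above every other list in every library, the muscle and hemocyte sums separate the diets in opposite directions, and CFD replicate 1 is the highest library for midgut and hemocyte markers.

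The largest rise was that of Cyp4e3, a cytochrome P450 gene (chromosome 2L, 9747839 to 9750071, BDGP6.54 annotation). It had 14.1, 13.7 and 14.9 on CFD and 8182, 4701 and 3080.3 on HFD, equal to a log2 fold change of 8.34 (SE 0.54, limma adjusted p = 8.55e-07). The CFD libraries were nearly equal, while the HFD libraries differed more among themselves. CG43402, with no role named here, had 3.54, 3.02 and 2.76 on CFD and 232, 671 and 403 on HFD, a change of 6.60 (SE 0.51, limma adjusted p = 2.97e-06). The chitin-binding gene obst-J had 14.0, 20.1 and 13.9 on CFD and 854, 1840.1 and 2514 on HFD, a change of 6.56 (SE 0.35, limma adjusted p = 2.08e-07), and CG3348 had 68.2, 40.9 and 39.8 on CFD and 2225, 2213 and 2849 on HFD, a change of 5.62 (SE 0.31, limma adjusted p = 2.34e-07). The lowest HFD library was 32.4 times the highest CFD library for CG3348, the narrowest gap of these 4 genes, and 207 times for Cyp4e3.

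The 15 largest rises included 3 Bomanin genes and TotC. Bomanins are short secreted peptides made under control of the Toll pathway, and the 3 genes were IM3 (BomS3), CG16836 (BomT2) and CG15068 (BomS6). IM3 had 4.38, 8.85 and 1.01 on CFD and 149, 183 and 163 on HFD, equal to a log2 fold change of 5.12 (SE 0.66, limma adjusted p = 0.000188). The HFD libraries agreed closely, and the spread lay in the low CFD values. CG16836 rose by 3.93 (SE 0.55) and CG15068 by 3.83 (SE 0.75), the latter with HFD replicate 1 far below the other HFD libraries. For IM3 the log2 fold change was 4.51 without CFD replicate 3. For CG15068 the log2 fold change was 4.74 without HFD replicate 1. TotC, a Turandot peptide released under stress, had 17.1, 60.4 and 48.4 on CFD and 572, 1116 and 1323 on HFD, a change of 4.64 (SE 0.38, limma adjusted p = 5.55e-06). Its relative TotA, at far higher values, had 4455, 5856 and 4364 on CFD and 8105, 10715 and 12772 on HFD, a change of 1.09 (SE 0.24, limma adjusted p = 0.00711). Both genes were lower in each CFD library than in any HFD library.

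The remaining large rises are of various kinds. The steroid P450 gene sad, whose enzyme acts late in ecdysone synthesis, had 126, 296 and 258 on CFD and 2569, 4562 and 3655 on HFD, equal to a log2 fold change of 4.03 (SE 0.31, limma adjusted p = 2.97e-06). It overlaps CG6962 on the other strand, which was not called, and whether the counting used strand is not stated in the sources used here. The poly(A) polymerase gene wisp, known from the oocyte, had 49.8, 98.3 and 81.5 on CFD and 816, 1447 and 989 on HFD, a change of 3.82 (SE 0.27, limma adjusted p = 1.83e-06). Iris, derived from a retroviral envelope gene, rose by 3.92 (SE 0.35), and CG14275, CG16898, CG1774 and CG12105 by 4.96 (SE 0.52), 4.73 (SE 0.65), 4.08 (SE 0.31) and 3.59 (SE 0.32). CG43085 stood out for its level, with 1878, 2964 and 1717 on CFD and 14975, 31038 and 28914 on HFD, a change of 3.49 (SE 0.44, limma adjusted p = 0.000148). All HFD libraries of these genes lay above all CFD libraries, which was a condition for the 15 largest rises.

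**Figure D3:**
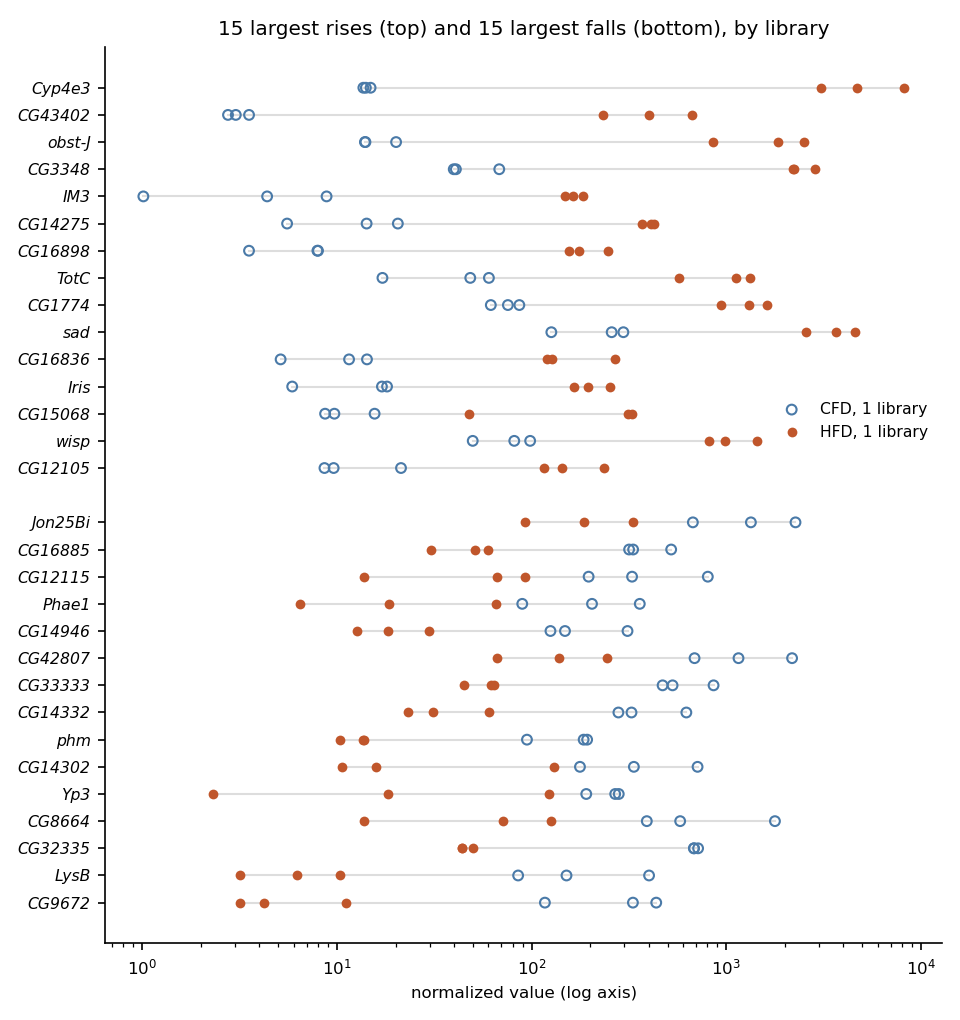
Normalized values on a log axis for the 15 genes with the largest rise and the 15 with the largest fall among called genes that averaged at least 10 RPM without overlap of the diets, 1 point per library, open for CFD and filled for HFD. The gap between the diets is widest for Cyp4e3, and CG32335 has tight libraries in both diets.

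CG9672 had the largest of the 15 falls, with 437, 332 and 117 on CFD and 11.2, 4.21 and 3.19 on HFD, equal to a log2 fold change of -5.33 (SE 0.51, limma adjusted p = 1.66e-05). LysB, a lysozyme gene of the gut, had 401, 151 and 85.3 on CFD and 10.3, 6.21 and 3.19 on HFD, a change of -4.64 (SE 0.56, limma adjusted p = 0.000109). The serine protease genes Jon25Bi and Phae1 fell, with changes of -2.82 (SE 0.56) and -3.15 (SE 0.70). In these 4 genes no library overlapped between the diets, which was a condition for the 15 largest falls. Each diet had a wide spread, with replicate 1 highest on CFD and on HFD. CG8664, CG14302 and CG12115, with no role named here, had the same order of libraries and changes of -3.85 (SE 0.76), -3.56 (SE 0.74) and -3.04 (SE 0.64). The summed midgut markers, 1344 to 15955 over the 6 libraries, were likewise highest in replicate 1 of each diet. Of the genes above at least LysB is in that marker list, so the shared order is partly built in. The part of midgut RNA in these falls was not tested. For LysB the log2 fold change was -4.03 without CFD replicate 1. For Phae1 the log2 fold change was -3.97 without HFD replicate 1 and -2.39 without HFD replicate 3. For CG8664 the log2 fold change was -3.21 without CFD replicate 1, -4.50 without HFD replicate 1 and -2.95 without HFD replicate 3. For CG14302 the log2 fold change was -4.64 without HFD replicate 1 and -2.89 without HFD replicate 3. For CG12115 the log2 fold change was -2.23 without HFD replicate 3.

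Among the other large falls, CG32335 (meep) had 682, 717 and 683 on CFD and 43.8, 50.1 and 43.9 on HFD, a change of -3.89 (SE 0.30, limma adjusted p = 2.97e-06). Each diet was tight and the diets lay far apart. The steroid P450 gene phm, which acts earlier in ecdysone synthesis than sad, had 94.7, 193 and 185 on CFD and 10.4, 13.7 and 13.6 on HFD, a change of -3.49 (SE 0.29, limma adjusted p = 5.12e-06). CG33333 and CG14332, which lie close together on chromosome 3R, fell, with changes of -3.39 (SE 0.43) and -3.41 (SE 0.39). CG16885 (Vajk2), CG14946 and CG42807 fell, with changes of -3.04 (SE 0.31), -3.17 (SE 0.33) and -3.18 (SE 0.44). The yolk protein gene Yp3 had 280.4, 269 and 191 on CFD and 123, 18.3 and 2.30 on HFD, a change of -3.62 (SE 0.93, limma adjusted p = 0.0152), with HFD libraries that differed far more than the CFD libraries. For Yp3 the log2 fold change was -3.52 (adjusted p = 0.0538, not called) without CFD replicate 1, -4.94 without HFD replicate 1, -3.60 (adjusted p = 0.0504, not called) without HFD replicate 2 and -2.32 without HFD replicate 3.

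The sugar sensor gene Mio and its target sug rose. Mio, which encodes Mondo, had 455, 503 and 489 on CFD and 1608, 1438 and 1290.5 on HFD, equal to a log2 fold change of 1.58 (SE 0.18, limma adjusted p = 7.25e-05). sug had 77.3, 116 and 102 on CFD and 574, 551 and 418 on HFD, a change of 2.38 (SE 0.24, limma adjusted p = 2.68e-05). The lowest HFD library was 2.57 times the highest CFD library for Mio and 3.61 times for sug. Of the 11 transcription factors listed as sensors of sugar or lipid 3 rose and 0 fell, with a median of 0.42, beside 9.38% and 9.84% of all genes. The most abundant member, crc (the ATF4 counterpart), had 0.35 (SE 0.18, limma adjusted p = 0.198) and was not called.

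Sugar transporters changed in both directions. Of 15 measured SLC2-type transporter genes 3 rose and 6 fell, and 6 fell in each of the 6 fits without 1 library. Glut1, the fly GLUT1 counterpart, had 276, 312 and 375 on CFD and 136, 117 and 108 on HFD, equal to a log2 fold change of -1.40 (SE 0.19, limma adjusted p = 0.000274). Tret1-1, the trehalose transporter, had 2509, 2422 and 2256 on CFD and 4362, 4447 and 3929 on HFD, a change of 0.82 (SE 0.17, limma adjusted p = 0.00419). The diets did not overlap for either gene, in opposite directions. CG33282, CG3285 and CG15406 fell, with changes of -2.23 (SE 0.48), -1.66 (SE 0.33) and -1.29 (SE 0.25), and CG1213 rose by 1.45 (SE 0.32). With library totals as the scale the count was 3 higher and 6 lower as well.

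Enzymes of the polyol route, which links glucose, sorbitol and fructose, changed in both directions. CG6084 (Akr1B), an aldose reductase that makes sorbitol from glucose, had 321, 376 and 242 on CFD and 725, 901 and 645 on HFD, a change of 1.28 (SE 0.29, limma adjusted p = 0.00845). Sodh-1, a sorbitol dehydrogenase that makes fructose from sorbitol, had 599, 807 and 506 on CFD and 151, 124 and 69.1 on HFD, a change of -2.51 (SE 0.36, limma adjusted p = 0.000365). All HFD libraries were above CFD for the former and below CFD for the latter. The list of 8 hexokinase and polyol genes had 3 rises and 1 fall, and in addition to CG6084 the rise of CG13369, a sugar kinase of the ribokinase family, was 0.84 (SE 0.16, limma adjusted p = 0.00232). In that list 1 member rose with library totals as the scale. Of 11 glycolytic genes 1 rose, with a median of 0.37. That gene was PyK, pyruvate kinase, with 0.68 (SE 0.20, limma adjusted p = 0.0318). For PyK the log2 fold change was 0.63 (adjusted p = 0.0997, not called) without CFD replicate 1, 0.74 (adjusted p = 0.0553, not called) without CFD replicate 2, 0.67 (adjusted p = 0.0768, not called) without CFD replicate 3, 0.63 (adjusted p = 0.0804, not called) without HFD replicate 1 and 0.55 (adjusted p = 0.135, not called) without HFD replicate 2. The count of rising glycolytic genes was 0 without CFD replicate 1, CFD replicate 2, CFD replicate 3, HFD replicate 1 or HFD replicate 2 and 4 without HFD replicate 3. Gapdh1, the member with the highest value, had 6119, 6844 and 6231 on CFD and 9722, 8279 and 7169.8 on HFD, a change of 0.38 (SE 0.22, limma adjusted p = 0.255), without overlap and without a call.

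Genes for making glucose and storing it had rises and no fall. Of 12 genes of gluconeogenesis, trehalose and glycogen 6 rose and 0 fell, with a median of 0.91. Pepck, the enzyme that commits carbon to gluconeogenesis, had 10796, 12604 and 11494 on CFD and 41161, 38445 and 31407 on HFD, equal to a log2 fold change of 1.66 (SE 0.22, limma adjusted p = 0.000216). CG10924 (Pepck2), the mitochondrial form, had 1594, 1712 and 1694 on CFD and 4784, 4653 and 4367 on HFD, a change of 1.46 (SE 0.19, limma adjusted p = 0.000166). Both were higher in every HFD library than in any CFD library, and CG10924 was nearly constant within each diet. The other 4 calls included the glycogen branching enzyme gene CG33138 (AGBE) and the pyruvate carboxylase gene CG1516, and these depended on single libraries. The number of rising members was 3 without CFD replicate 3 or HFD replicate 2, and 5 with library totals as the scale.

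Genes that supply NADPH rose in part. Of 8 pentose phosphate and NADPH genes 5 rose and 0 fell, with a median of 0.94, and 4 or 5 rose whichever library was left out. Men, the malic enzyme, had 1506, 1921 and 1270.2 on CFD and 8752, 7663 and 5405 on HFD, a change of 2.21 (SE 0.30, limma adjusted p = 0.00027). Zw, glucose 6-phosphate dehydrogenase, had 80.1, 95.8 and 71.0 on CFD and 286, 432 and 212 on HFD, a change of 1.85 (SE 0.25, limma adjusted p = 0.000277). Pgd, the next enzyme of the pathway, rose by 1.44 (SE 0.26) and Tal (transaldolase) by 1.07 (SE 0.22). No HFD library of these 4 genes was as low as a CFD library.

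Fatty acid synthesis was the list with the largest share of rising members. Of 8 genes 6 rose and 0 fell, with a median of 1.56, and 6 rose in each fit without 1 library. AcCoAS, which makes acetyl-CoA from acetate, had 2139, 2856 and 1627 on CFD and 11710, 11692 and 9451 on HFD, equal to a log2 fold change of 2.34 (SE 0.29, limma adjusted p = 0.000131). ACC, acetyl-CoA carboxylase, had 1193, 2211 and 1216 on CFD and 4800, 7442 and 4150.3 on HFD, a change of 1.84 (SE 0.30, limma adjusted p = 0.00105). CG3523 (FASN1), fatty acid synthase, had 4484, 7694 and 4117 on CFD and 18620, 21421 and 10376 on HFD, a change of 1.62 (SE 0.34, limma adjusted p = 0.00476). These enzymes of the first steps rose together in all HFD libraries. CFD replicate 2 was the highest CFD library and HFD replicate 3 the lowest HFD library for each of them. The second synthase gene v(2)k05816 (FASN2) rose by 1.81 (SE 0.34) and the desaturase gene desat1, also a fat body marker, by 1.50 (SE 0.36). The mean log2 level of the list was 9.48, 9.84 and 9.28 on CFD and 10.75, 10.99 and 10.50 on HFD, without overlap.

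Genes of TAG assembly rose in part. Gpdh, which makes glycerol 3-phosphate from a glycolytic intermediate, had 325, 387 and 267 on CFD and 3079.6, 2772 and 1425 on HFD, equal to a log2 fold change of 2.83 (SE 0.31, limma adjusted p = 5.01e-05). The lowest HFD library was 3.69 times the highest CFD library. mdy, the DGAT1 counterpart that adds the last fatty acid to TAG, had 189.5, 202 and 137 on CFD and 393, 461 and 486 on HFD, a change of 1.35 (SE 0.25, limma adjusted p = 0.00224). The glycerol kinase gene Gyk rose by 1.099 (SE 0.19) and Lpin, the phosphatidate phosphatase lipin, by 0.90 (SE 0.16). Of 8 measured genes of glycerol 3-phosphate and TAG assembly 4 rose and 0 fell, in the full set and in each fit without 1 library.

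Genes of fat breakdown and of the lipid droplet rose in part as well. bmm, the ATGL counterpart that opens TAG breakdown, had 238, 269.6 and 237 on CFD and 843, 675 and 500.2 on HFD, equal to a log2 fold change of 1.41 (SE 0.24, limma adjusted p = 0.00154). Lsd-1, the perilipin of the droplet surface, had 4503, 4179.7 and 3932 on CFD and 10651, 7524 and 7169.8 on HFD, a change of 0.99 (SE 0.22, limma adjusted p = 0.0075). No library overlapped between the diets for either gene. The phospholipase gene CG8552 (PAPLA1) and the lipase gene CG5966 rose by 0.95 (SE 0.19) and 0.75 (SE 0.15), whereas the lipase gene Lip3 fell, with a change of -2.01 (SE 0.45). Of 9 lipase and lipid droplet genes 4 rose and 1 fell, also without each library in turn.

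Fatty acid oxidation genes had rises and 1 fall. Of 17 genes 6 rose and 1 fell, with a median of 0.32. The thiolase gene yip2 had 2571, 2331 and 2556 on CFD and 5098, 4713 and 4318 on HFD, a change of 0.92 (SE 0.15, limma adjusted p = 0.00123). The lowest HFD library was 1.68 times the highest CFD library. Mtpalpha, of the mitochondrial trifunctional protein, rose by 0.89 (SE 0.18) and CG7461 (Acadvl) by 0.74 (SE 0.18). Of the list 3 rose and 1 fell with library totals as the scale. In the TCA cycle list 3 of 15 rose, among them skap, a succinyl-CoA synthetase subunit, with 1.07 (SE 0.15, limma adjusted p = 0.000309). Rising TCA cycle genes numbered 1 without CFD replicate 1 or HFD replicate 1, and 1 fell without HFD replicate 1.

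**Figure D4:**
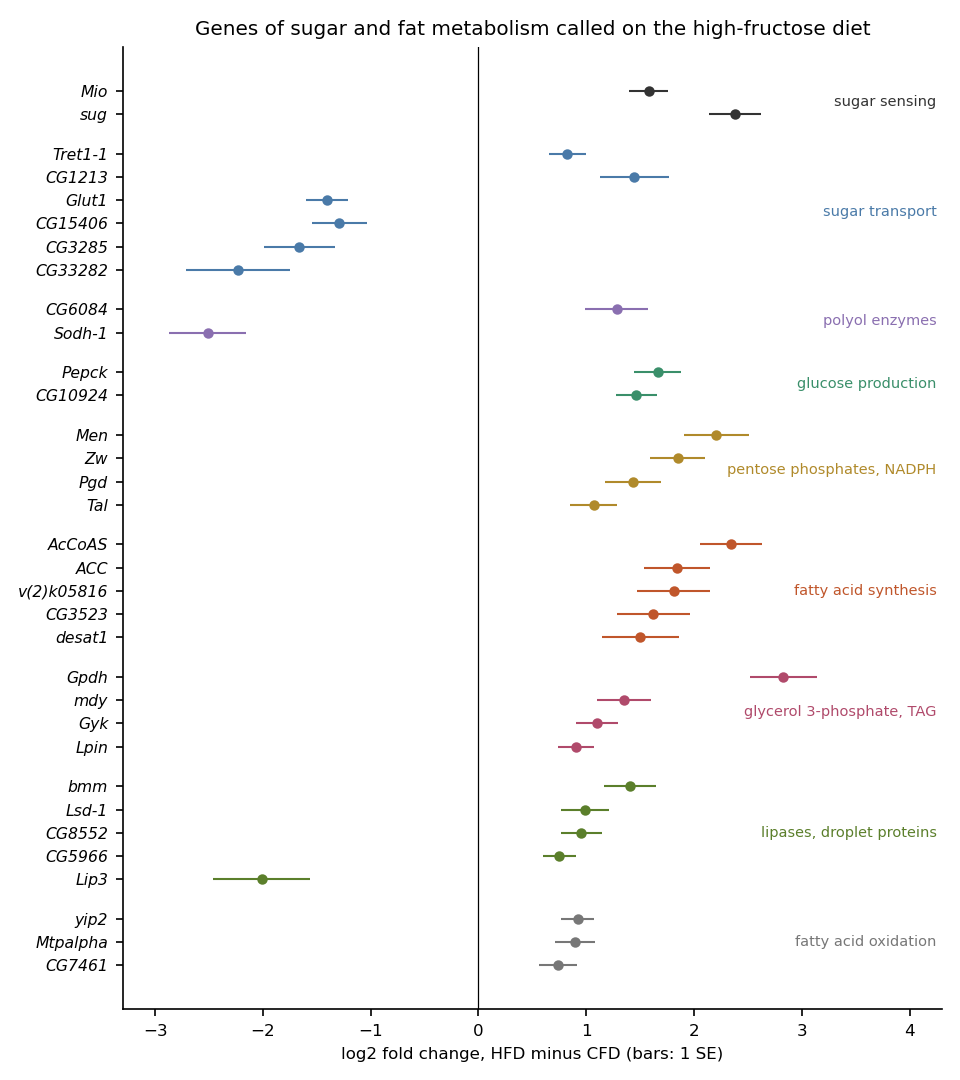
Log2 fold changes, HFD minus CFD, of called genes of sugar and fat metabolism, ordered by role, with bars of 1 SE. The drawn genes of sugar sensing, NADPH, fatty acid synthesis and TAG assembly are to the right of 0. Those of transporters, polyol enzymes and lipases lie on both sides. Some called genes are left out, among them the 1 fall of fatty acid oxidation. Genes that were not called are not drawn either. They include 1 member below 0 in each list of sensing factors, fatty acid synthesis and TAG assembly.

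In insulin and TOR signalling, 8 of 19 genes rose and 0 fell, with a median of 0.44, beside 9.38% and 9.84% of all genes. S6k, the kinase through which TOR raises translation, had 186, 254 and 274 on CFD and 426, 499.9 and 498 on HFD, a change of 1.01 (SE 0.17, limma adjusted p = 0.00114). Pi3K92E, the catalytic subunit of the insulin-activated PI3-kinase, had 301, 377 and 364 on CFD and 576, 721 and 648 on HFD, a change of 0.90 (SE 0.14, limma adjusted p = 0.000845). For both genes every HFD library exceeded every CFD library. Thor, the translation inhibitor 4E-BP, had 919.8, 928 and 969.7 on CFD and 1393, 1749 and 841 on HFD, a change of 0.44 (SE 0.22, limma adjusted p = 0.176), with overlapping diets. Without HFD replicate 3 its change was 0.73 (limma adjusted p = 0.0122) and Thor was called higher. The count of rising members was 2 without CFD replicate 1, 3 without HFD replicate 2, 4 without HFD replicate 3 and 5 without CFD replicate 2, and 2 with library totals as the scale.

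Of the hormones and signals that the fat body secretes 4 of 11 rose and 1 fell. CCHa2, a nutrient-dependent peptide that acts on the insulin-producing cells of the brain, had 693, 624 and 507 on CFD and 1695, 1475 and 1343 on HFD, equal to a log2 fold change of 1.31 (SE 0.18, limma adjusted p = 0.000274). It was called in every fit tried, and its libraries did not overlap between the diets. The count of rising members was 1 without CFD replicate 1 or HFD replicate 2 and 2 without CFD replicate 2, HFD replicate 1 or HFD replicate 3. That of falling members was 0 without CFD replicate 1, CFD replicate 2, CFD replicate 3, HFD replicate 2 or HFD replicate 3 and 2 without HFD replicate 1.

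Genes of the steroid hormone ecdysone changed in both directions. Of 7 genes of its synthesis and inactivation 1 rose, sad, and 3 fell, in the full set and in each fit without 1 library. Beside phm, already described, spok had 97.2, 70.7 and 71.1 on CFD and 4.79, 7.70 and 6.26 on HFD, a change of -3.48 (SE 0.48, limma adjusted p = 0.000275). It encodes an early P450 of the pathway. Eo, an ecdysone oxidase gene, fell, with a change of -1.38 (SE 0.28). Synthesis of ecdysone takes place in the ring gland, of which 2 of 8 markers were measured, phm and sro, and only phm was called. Of 21 receptor and response genes 1 rose and 5 fell. ImpE2, an ecdysone-induced gene, had 1206, 663 and 965 on CFD and 260.5, 224 and 155 on HFD, a change of -2.13 (SE 0.28, limma adjusted p = 0.000216), and ImpE3 fell, with a change of -1.27 (SE 0.22). The nuclear receptor gene ftz-f1 rose by 0.85 (SE 0.18). Falling response genes numbered 2 without CFD replicate 2 or HFD replicate 2 and 3 without CFD replicate 1.

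Juvenile hormone genes gave 4 rises and 1 fall among 10. The esterase gene Jhedup had 8.89, 8.52 and 3.87 on CFD and 21.2, 18.3 and 22.95 on HFD, a change of 1.50 (SE 0.34, limma adjusted p = 0.00738), and Jheh1, an epoxide hydrolase that breaks the hormone down, rose by 1.002 (SE 0.25). For Jheh1 the log2 fold change was 0.89 (adjusted p = 0.0527, not called) without CFD replicate 3. The count of rising members was 1 without CFD replicate 3 and 2 without CFD replicate 1, HFD replicate 1 or HFD replicate 2. That of falling members was 0 without CFD replicate 1, CFD replicate 2, CFD replicate 3, HFD replicate 1 or HFD replicate 3. Of 6 storage protein genes only Lsp1alpha was called. It had 192330, 231390 and 166480 on CFD and 104200, 50049 and 25949 on HFD, a change of -1.92 (SE 0.54, limma adjusted p = 0.0233). For Lsp1alpha the log2 fold change was -1.93 (adjusted p = 0.0691, not called) without CFD replicate 1, -1.80 (adjusted p = 0.0737, not called) without CFD replicate 2, -1.91 (adjusted p = 0.0702, not called) without HFD replicate 2 and -1.43 (adjusted p = 0.0989, not called) without HFD replicate 3. Lsp1beta, another subunit of the same larval serum protein, had 253580, 339300 and 260870 on CFD and 515730, 483310 and 266990 on HFD, a change of 0.52 (SE 0.51, limma adjusted p = 0.518), and Fbp1, the receptor that takes storage proteins back up, had 544290, 524280 and 494170 on CFD and 409680, 247290 and 240070 on HFD, a change of -0.85 (SE 0.48, limma adjusted p = 0.242). The diets overlapped for Lsp1beta and did not for Lsp1alpha and Fbp1.

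Of 11 measured antimicrobial peptide genes 2 fell and none rose, beside 9.84% and 9.38% of all genes. The median of -0.64 became -0.04 without HFD replicate 1 and -0.29 without CFD replicate 2, and the falls numbered 1 without CFD replicate 2, CFD replicate 3, HFD replicate 1 or HFD replicate 3. dro5 (Drsl5), a drosomycin-like gene, had 111, 257 and 296 on CFD and 72.9, 34.6 and 27.3 on HFD, equal to a log2 fold change of -2.28 (SE 0.49, limma adjusted p = 0.00547). The second was AttB, an attacin gene, with -1.67 (SE 0.53, limma adjusted p = 0.0396). For AttB the log2 fold change was -1.07 (adjusted p = 0.157, not called) without CFD replicate 2, -1.86 (adjusted p = 0.0544, not called) without CFD replicate 3, -1.24 (adjusted p = 0.133, not called) without HFD replicate 1 and -1.81 (adjusted p = 0.0602, not called) without HFD replicate 3. In the Toll and Imd pathways 4 of 21 genes rose and 1 fell. grass, a serine protease upstream of Toll, had 771, 831 and 749 on CFD and 1554, 1830.4 and 1559.9 on HFD, a change of 1.07 (SE 0.15, limma adjusted p = 0.000397). The lowest HFD library was 1.87 times the highest CFD library. Rising pathway genes numbered 1 without HFD replicate 2 and 2 without CFD replicate 1, CFD replicate 3 or HFD replicate 3. No pathway gene fell without CFD replicate 1, CFD replicate 2, CFD replicate 3, HFD replicate 2 or HFD replicate 3. Of 8 Turandot and JAK/STAT genes 2 rose, TotC and TotA, and none fell.

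In the basement membrane, 2 of 14 genes rose and 3 fell. Pxn, peroxidasin, the enzyme that crosslinks collagen IV, had 1954, 1253 and 1374 on CFD and 4845, 5909 and 3962 on HFD, a change of 1.69 (SE 0.26, limma adjusted p = 0.000701). It is also made by hemocytes, whose markers fell as given above. LanB1, a laminin chain, had 954, 908 and 868 on CFD and 641, 537 and 551 on HFD, a change of -0.66 (SE 0.16, limma adjusted p = 0.0101). Diets did not overlap for Pxn or LanB1. The counts moved to 1 without CFD replicate 1, CFD replicate 2, CFD replicate 3, HFD replicate 1 or HFD replicate 2 for rises, and to 1 without CFD replicate 2, CFD replicate 3, HFD replicate 2 or HFD replicate 3 for falls. None of 6 imaginal disc growth factor genes was called.

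Small heat shock proteins fell in part. Of 13 cytosolic chaperone genes 4 fell and 2 rose. Hsp67Bc had 233, 170.4 and 227 on CFD and 96.5, 54.9 and 61.7 on HFD, equal to a log2 fold change of -1.58 (SE 0.32, limma adjusted p = 0.00381), and Hsp27 had 1509, 946 and 1198 on CFD and 582, 608 and 559.6 on HFD, a change of -1.03 (SE 0.20, limma adjusted p = 0.00294). Hsc70-4, the constitutive chaperone with the highest value in the list, had 0.26 (SE 0.20, limma adjusted p = 0.406) and was not called. Falling members numbered 2 without HFD replicate 2, and rising ones 0 without CFD replicate 2 or HFD replicate 3 and 1 without CFD replicate 1, CFD replicate 3, HFD replicate 1 or HFD replicate 2. Of 14 genes of the unfolded protein response and the endoplasmic reticulum chaperones 1 rose, and that was Xbp1, the transcription factor activated by Ire1, with 2889, 2757 and 2554 on CFD and 4372, 5229 and 4907 on HFD, a change of 0.82 (SE 0.15, limma adjusted p = 0.00253). Without HFD replicate 3, 3 members rose.

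Of 16 glutathione S-transferase genes, whose products detoxify by adding glutathione, 3 rose and 2 fell, beside 9.38% and 9.84% of all genes. The rising ones were of the epsilon class, led by GstE9 with 102, 101 and 72.2 on CFD and 280.2, 309 and 268 on HFD, a change of 1.64 (SE 0.25, limma adjusted p = 0.000583). The falling ones were of the delta class, GstD3 with 105, 96.0 and 101 on CFD and 28.2, 26.9 and 34.4 on HFD, a change of -1.73 (SE 0.19, limma adjusted p = 5.01e-05), and GstD10 with -1.34 (SE 0.26). GSTs of a class are close paralogs, and reads shared between copies make single members uncertain. Gclc, which limits glutathione synthesis, had 122, 127 and 149.6 on CFD and 311, 285 and 270.4 on HFD, a change of 1.11 (SE 0.17, limma adjusted p = 0.000638), and was 1 of 3 rises among 14 antioxidant genes. That count was 1 without CFD replicate 2, CFD replicate 3 or HFD replicate 2, and 1 gene of the list fell without HFD replicate 1. Catalase (Cat) had -0.71 (SE 0.24, limma adjusted p = 0.0581), without overlap of its libraries and without a call. Cat was called lower in 4 of the 16 alternative fits, among them that without HFD replicate 1, where its change was -0.94. Of 6 UDP-glycosyltransferase genes 2 fell and 0 rose, and without CFD replicate 1 or HFD replicate 1 the count of falls was 1.

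Of 68 cytochrome P450 genes 12 rose and 10 fell, beside 9.38% and 9.84% of all genes. Their log2 fold changes ranged from -1.81 to 8.34. Besides Cyp4e3, Cyp4d14 had 103, 182 and 108 on CFD and 551, 645 and 437 on HFD, a change of 2.08 (SE 0.28, limma adjusted p = 0.000216). Cyp309a2 rose by 2.49 (SE 0.51) and Cyp310a1 by 1.57 (SE 0.22). Cyp9h1 had 179.6, 261 and 171 on CFD and 60.3, 54.7 and 54.3 on HFD, a change of -1.81 (SE 0.24, limma adjusted p = 0.000236). Cyp28d1, Cyp6d5 and Cyp304a1 fell, with changes of -1.64 (SE 0.22), -1.64 (SE 0.32) and -1.57 (SE 0.31). Many P450 enzymes oxidize xenobiotics, fatty acids or hormones. With library totals as the scale 10 rose and 10 fell. For Cyp309a2 the log2 fold change was 1.83 without CFD replicate 3.

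Metal genes changed in both directions. Fer1HCH, the heavy chain of the iron store ferritin, had 2864, 2932 and 2480.5 on CFD and 5847, 5112 and 4825 on HFD, a change of 0.93 (SE 0.16, limma adjusted p = 0.00145). MtnD, a metallothionein that binds copper and zinc, had 89.2, 79.4 and 60.2 on CFD and 15.8, 24.4 and 25.0 on HFD, a change of -1.77 (SE 0.29, limma adjusted p = 0.000997). MTF-1, the transcription factor that switches metallothioneins on, rose by 0.80 (SE 0.14), and the transferrin gene Tsf3 by 0.81 (SE 0.17). Libraries did not overlap between the diets for these 4 genes. Of 10 ferritin, transferrin and metallothionein genes 4 rose and 3 fell, all falls being metallothioneins. The count of falls was 1 without CFD replicate 1 or HFD replicate 1.

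Among amino acid, folate and purine enzymes, CG1461 (Tat), tyrosine aminotransferase, had 13.9, 19.1 and 23.7 on CFD and 61.9, 78.2 and 73.1 on HFD, a change of 1.88 (SE 0.34, limma adjusted p = 0.00185), and v, which opens tryptophan breakdown, fell, with a change of -1.02 (SE 0.21). Nmdmc, a folate enzyme of mitochondria, had 452, 367 and 349.7 on CFD and 129, 134 and 142 on HFD, a change of -1.51 (SE 0.16, limma adjusted p = 3.42e-05). CG17273 (Adss), adenylosuccinate synthase, had 428, 436 and 465 on CFD and 877, 929 and 803 on HFD, a change of 0.97 (SE 0.15, limma adjusted p = 0.000845). Each was without overlap between diets. In all 2 of 7 genes of tyrosine, phenylalanine and tryptophan breakdown rose and 1 fell, 1 of 11 one-carbon genes rose and 3 fell, and 1 of 10 purine genes rose and 3 fell. The count of rises was 1 without CFD replicate 1, CFD replicate 2, CFD replicate 3 or HFD replicate 1 for tyrosine, phenylalanine and tryptophan breakdown and 0 without CFD replicate 1, HFD replicate 2 or HFD replicate 3 for one-carbon genes. The count of falls was 1 without CFD replicate 2 for one-carbon genes. For purine genes it was 0 without CFD replicate 1 and 1 without CFD replicate 3 or HFD replicate 2.

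Of 30 genes of the proteasome, which degrades tagged proteins, 11 rose and none fell, with a median of 0.30. The shares of rises and falls over all genes were 9.38% and 9.84%. Rpn5, a subunit of the regulatory lid, had 791, 657 and 701 on CFD and 1128, 1104 and 1033 on HFD, equal to a log2 fold change of 0.61 (SE 0.15, limma adjusted p = 0.0114), and Pros54 (Rpn10), a ubiquitin receptor, rose by 0.56 (SE 0.12). The paralog Rpt6R had the largest rise, 2.84 (SE 0.51, limma adjusted p = 0.00192), at low values of 2.61, 3.88 and 2.76 on CFD and 10.9, 50.0 and 39.6 on HFD. For Rpt6R the log2 fold change was 3.49 without HFD replicate 1. The count of rises was 6 without CFD replicate 2, HFD replicate 2 or HFD replicate 3 and 7 without HFD replicate 1, and 1 with library totals as the scale.

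Of 85 cytosolic ribosomal protein genes 5 rose and 2 fell, with a median of 0.13, smaller shares than the 9.38% and 9.84% of all genes. With library totals as the scale none rose, 3 fell and the median was -0.07. RpL41 had 20975, 15495 and 14666 on CFD and 10426, 7135 and 7198 on HFD, a change of -1.05 (SE 0.21, limma adjusted p = 0.00406), and RpS3A rose by 0.87 (SE 0.21). Of 71 mitochondrial ribosomal protein genes 3 fell and none rose, beside 9.84% and 9.38% of all genes. The aminoacyl-tRNA synthetases had 5 rises among 21, led by Aats-tyr with 495, 513 and 519.9 on CFD and 722, 1031 and 1021 on HFD, a change of 0.84 (SE 0.14, limma adjusted p = 0.00129). The initiation helicase gene eIF-4a had 9328, 9239 and 9363 on CFD and 14972, 15630 and 15613 on HFD, a change of 0.73 (SE 0.16, limma adjusted p = 0.00602), with nearly equal libraries within each diet. CG8801 (Non1), a GTPase needed to build the large ribosomal subunit, had 2094, 2070.3 and 2289 on CFD and 6176, 6571 and 6334 on HFD, a change of 1.56 (SE 0.15, limma adjusted p = 1.44e-05), while 5 of the 18 Myc and ribosome biogenesis genes fell. Rising ribosomal protein genes numbered 1 without CFD replicate 2 and 2 without CFD replicate 1, CFD replicate 3, HFD replicate 2 or HFD replicate 3, and falling ones 1 without CFD replicate 1, CFD replicate 2 or CFD replicate 3. Falling mitochondrial ribosomal protein genes numbered 0 without CFD replicate 1, CFD replicate 3 or HFD replicate 2 and 6 without HFD replicate 1, with 1 rise without HFD replicate 3. Without single libraries, falling biogenesis genes 0 without CFD replicate 1, CFD replicate 3 or HFD replicate 2 and 2 without HFD replicate 1 or HFD replicate 3, and rising synthetases 3 without CFD replicate 1.

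DNA replication genes fell in part and none rose. Of 23 genes 6 fell, with a median of -0.39. mus209, the sliding clamp PCNA, had 180.1, 110.1 and 129.9 on CFD and 64.2, 70.7 and 68.9 on HFD, a change of -1.004 (SE 0.21, limma adjusted p = 0.00442). All HFD libraries were below all CFD libraries. The count of falls was 2 without CFD replicate 1 and 3 without CFD replicate 3 or HFD replicate 1.

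Autophagy and proton pump genes gave 6 rises and 3 falls among 31. Atg7, which activates the conjugation systems of autophagy, had 551, 550.2 and 563 on CFD and 284, 211 and 266 on HFD, a change of -1.14 (SE 0.17, limma adjusted p = 0.000435), and Atg4, the protease of the same system, had 399, 428 and 431 on CFD and 628, 727 and 659 on HFD, a change of 0.68 (SE 0.13, limma adjusted p = 0.00304). The 2 genes moved in opposite directions without overlap. Rises in this list numbered 2 without CFD replicate 1, CFD replicate 2, CFD replicate 3 or HFD replicate 2, and falls 1 without CFD replicate 2 or HFD replicate 3. Clock genes had 4 rises and no fall among 7. Pdp1, an activator of the clock loop, had 46.7, 51.3 and 42.9 on CFD and 89.8, 157 and 125 on HFD, a change of 1.35 (SE 0.31, limma adjusted p = 0.00821), and tim rose by 1.25 (SE 0.31). Rising clock genes numbered 2 without any 1 of the 6 libraries. Cuticle and chitin-binding genes gave 4 rises, led by obst-J, and 3 falls among 26. Rises numbered 1 without CFD replicate 1 or HFD replicate 1 and 2 without CFD replicate 3 or HFD replicate 2, and falls 1 without CFD replicate 1 or HFD replicate 2.

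With library totals as the scale, some further list counts moved by more than 1.5 times. Rises then numbered 0 for autophagy, cytosolic chaperones, glycolysis, epidermis and ecdysone response genes. They numbered 1 for TCA cycle genes, aminoacyl-tRNA synthetases, antioxidant enzymes, basement membrane, cuticle and Toll and Imd genes and tyrosine, phenylalanine and tryptophan breakdown. They numbered 2 for clock, juvenile hormone and secreted hormone genes and 3 for muscle markers. One-carbon genes had no rise, secreted hormones no fall, ribosome biogenesis 1 fall and antioxidant enzymes 1 fall on that scale.

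**Figure D5:**
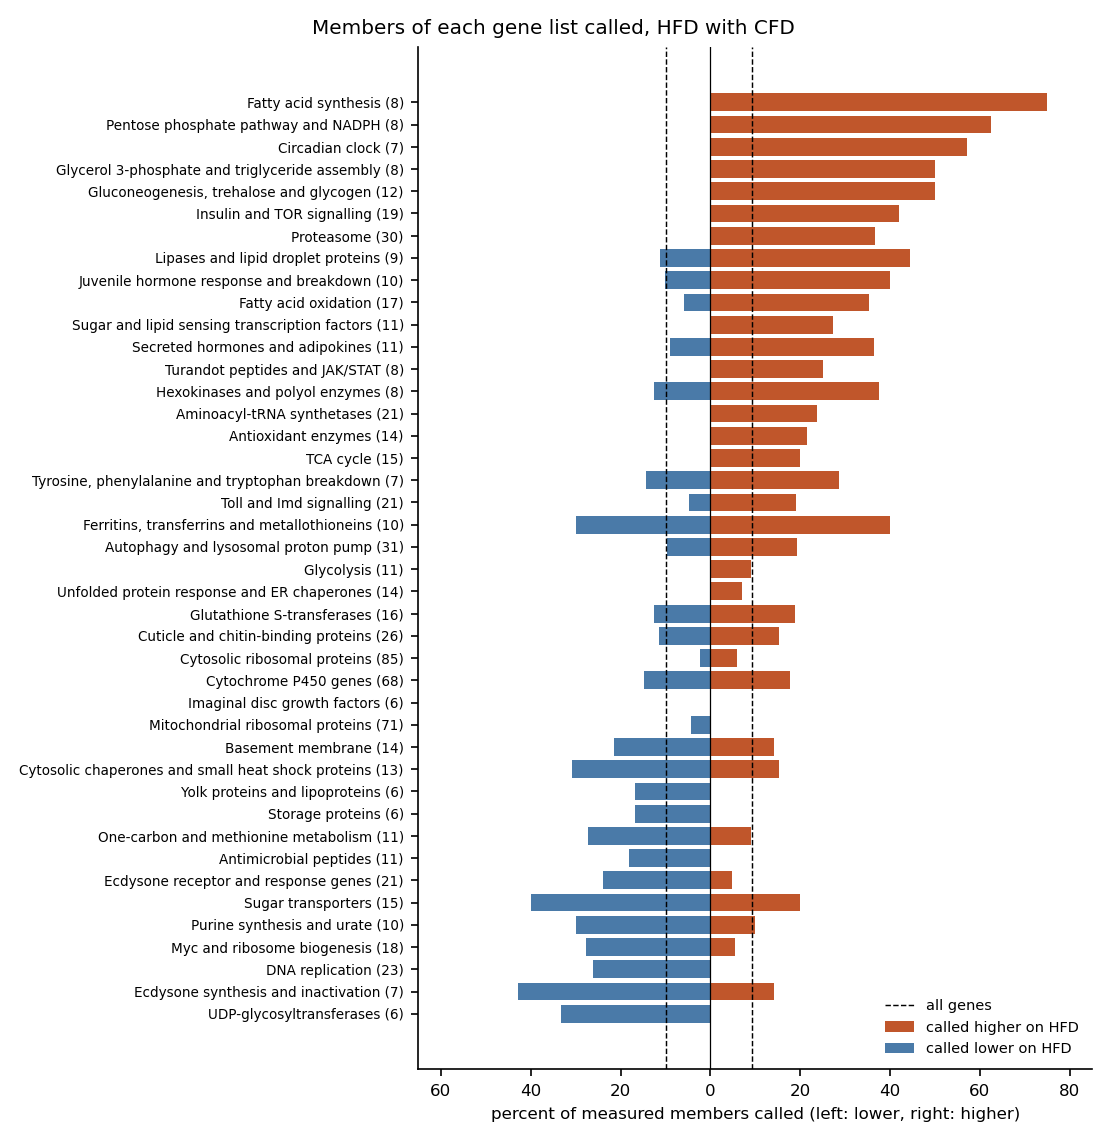
Percent of the measured members (number in brackets) of each gene list called higher (right, orange) or lower (left, blue) on HFD, with dashed lines at the 9.38% and 9.84% of all genes. Fatty acid synthesis and NADPH genes have the largest shares of rises, and UDP-glycosyltransferase and ecdysone genes are at the other end.

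Among genes with mean values of at least 5000, several of those with the smallest p have been described, such as AcCoAS, CG43085 and Pepck. CycG, the cyclin G gene, had 3651, 4884 and 4678 on CFD and 7706, 7886 and 8083 on HFD, a change of 0.85 (SE 0.15, limma adjusted p = 0.00169). Arc1, a capsid-like gene derived from a retrotransposon, had 17020, 13385 and 12316 on CFD and 6820.3, 6311 and 6936 on HFD, a change of -1.08 (SE 0.21, limma adjusted p = 0.0029), and CG12116 rose by 0.72 (SE 0.16). The libraries of the diets were apart in all 3.

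The glucose diets were set beside the fructose diets for a few of these genes. Their columns were normalized separately, so only differences within a sugar are set side by side. The 2 comparisons share no library, but they share the estimate of the spread of each gene. Cyp4e3 had 8.91 (SE 0.54) for HGD minus CGD beside 8.34 (SE 0.54) for fructose. Gpdh had 3.09 (SE 0.31) beside 2.83 (SE 0.31), sug 2.80 (SE 0.24) beside 2.38 (SE 0.24), and AcCoAS 2.36 (SE 0.29) beside 2.34 (SE 0.29). IM3 had 2.58 (SE 0.66) beside 5.12 (SE 0.66), and the difference of the responses was 2.54 (SE 0.94, limma adjusted p = 0.934). For Jhedup it was -0.04 (SE 0.34) beside 1.50 (SE 0.34), a difference of 1.54 (SE 0.47, limma adjusted p = 0.934). With glucose 2823 genes were called (29.7%). The difference between the responses was called for 0 of 9500 genes (0%) by limma, with 408 genes at an unadjusted p under 0.05, and for 0 genes with 372 at an unadjusted p under 0.05 by limma-voom on the recovered reads. A p that misses the threshold does not show that the sugars act alike. The SE of a difference between the sugars is larger than that of either response, as for IM3 above. The median SE of the fructose response alone was 0.22.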

How the data were processed

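According to the paper, the authors mapped reads to Ensembl_R72 and tested counts with the exact test of edgeR, whereas dm3, Cufflinks 1.1.0, Bowtie 0.12.7 and TopHat 1.3.2 stand in the notes of the submitters. The authors deposited a normalized signal for 9500 genes in 12 libraries, brought to 1 library size within each sugar. Since these values are not counts, log2(value + 1) was fitted in limma 3.58.1 (R 4.3.3, with a trended eBayes step) with 4 diet groups over 12 libraries. A minimum mean value of 1 removed 0 genes. Whole reads were recovered by inverting the adjustment, which returned 100% of values within 0.0001, although reads of the most abundant genes may be off by some reads. The 52 gene lists, 10 of them tissue markers, and the genes to name were chosen with earlier results of these data known. Named were the 15 largest rises and falls among called genes with at least 10 RPM and no overlap, up to 4 called members of each list and direction with its most abundant member, 10 genes with the highest values on CFD, 10 of smallest p with values of at least 5000, Dcr-2 and InR. Some of these are not reported here. Gene IDs found in BDGP6.54 (release 115, another build than that of the table) numbered 9073, and 4 symbols turned into dates were restored. The tests were also run on simulated data with 200 changed genes and the same dispersion for every gene. That setting does not show how well the calls hold in these data. Alternatives were other scalings, filters and pseudocounts, limma-voom, the replicate number as a block, the 6 fructose libraries alone, and each library left out. Python 3.11.15, numpy 2.4.6, pandas 2.3.3 and matplotlib 3.10.9 were used. The sequences of promoters were not analysed here.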

Additional observations from a re-analysis of the deposited data

How the results depend on the processing

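With 1 library left out, the number of called genes ranged from 1141 to 1657, of rises from 569 to 765 and of falls from 572 to 892. Of the 1826 calls 914 were made in all 6 of these fits and 774 in each of the 16 alternatives. With library totals as the scale 414 genes rose. Other scalings, filters, pseudocounts and limma-voom gave 1677 to 1830 calls. Values of 150 genes named in the text kept their sign in all 2400 alternative values, and of 140 called genes 123 were called in every alternative. The replicate number as a block gave 1584 calls and, in the 6 fructose libraries alone, a fit added after the data were seen, 1893, against 1672 there without the block. Same-numbered libraries of CFD and HFD had correlated deviations of 0.053, 0.010 and 0.206, and CFD replicate 2 correlated best with HFD replicate 1, so the numbers were not taken as pairs. Among the genes named, only the call of AttB was lost with the block. Of the list counts, the fall in Toll and Imd genes was lost with median-of-ratios scaling, limma-voom, the block and the 6 fructose libraries alone. The 3 falling mitochondrial ribosomal protein genes became 1 with median-of-ratios scaling or the 6 fructose libraries and 0 with limma-voom. With limma-voom 1 cuticle gene fell. The block left 2 rises in autophagy, 2 in clock genes, 3 rises and 1 fall in ribosomal proteins and 3 falls in ribosome biogenesis, and 1 rise each in basement membrane, chaperones and tyrosine, phenylalanine and tryptophan breakdown. The 6 fructose libraries alone gave 3 glycolytic rises, 1 antimicrobial peptide fall, 1 antioxidant fall and 1 rise each in basement membrane and tyrosine, phenylalanine and tryptophan breakdown. With the block added there, 4 glycolytic and 7 proteasome genes rose, and 0 mitochondrial ribosomal protein genes, 1 antioxidant and 1 cuticle gene fell. Each diet had only 3 libraries, and the median SE was 0.40 in the lowest class of genes by value and 0.18 in the highest.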

Other observations

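Some called genes were neighbours. Of 9073 listed genes placed on the BDGP6.54 annotation, 11 runs of at least 4 adjacent listed genes were called in 1 direction, 7 of them lower and 4 higher. These runs were looked for after the values were seen, and most of their genes are outside the rule for named genes. Neighbours in the genome are often related copies, and reads shared between copies were not separated here. A lower run on 3R, for example, holds 4 copies of snoRNA:Psi18S-1377. How many runs would arise without regard to position was not worked out.

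On 2L, 3 neighbouring transporter genes of the SLC2 type fell, with log2 fold changes of -2.23 (SE 0.48) for CG33282, -1.66 (SE 0.33) for CG3285 and -1.21 (SE 0.23) for CG15408, and E23, an ABC transporter gene, lay beside them. Also on 2L, CG16886, CG16885 and CG16884 fell, with log2 fold changes of -1.99 (SE 0.33), -3.04 (SE 0.31) and -2.06 (SE 0.31). The lysozyme gene LysB was in a run on 3L with LysS, CG32335 and CG9119, and LysB had a log2 fold change of -4.64 (SE 0.56). On 3R, CG42798, CG33333, CG42834 and CG14332 fell, with log2 fold changes of -2.51 (SE 0.39), -3.39 (SE 0.43), -2.58 (SE 0.32) and -3.41 (SE 0.39). CG42798 had 116, 222 and 50.7 on CFD and 19.9, 17.6 and 17.8 on HFD, and CG42834 had 317, 156.4 and 214 on CFD and 46.6, 35.0 and 28.3 on HFD. Both were lower in each HFD library than in any CFD library. For LysB the log2 fold change was -4.03 without CFD replicate 1.

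Among the rising runs on 3R, Slimp, a gene derived from a mitochondrial seryl-tRNA synthetase, had a log2 fold change of 1.34 (SE 0.22) next to CG6178, with 263, 374 and 241 on CFD and 1524, 1221 and 914 on HFD and a log2 fold change of 2.05 (SE 0.32, limma adjusted p = 0.00074). Another run held the iron regulatory protein gene Irp-1B, with 1234, 1796 and 1221 on CFD and 6148, 4821 and 3438 on HFD and a change of 1.74 (SE 0.29, limma adjusted p = 0.00117). The HFD libraries of CG6178 and of Irp-1B all lay above the CFD libraries.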
